A study of Mus musculus with 6 samples.

Results

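The genes that hold the mouse oocyte in meiotic arrest through cyclic AMP (cAMP) were followed in matured oocytes from aged mice, with and without quercetin. They are 10 genes chosen by name, out of 53465 genes in the count table: the receptors *Gpr3* and *Gpr12*, the G protein gene *Gnas*, the adenylyl cyclases *Adcy3* and *Adcy9*, the phosphodiesterase *Pde3a*, the protein kinase A (PKA) subunits *Prkar1a*, *Prkaca* and *Prkacb*, and the follicle receptor *Npr2*. RNA was sequenced from 6 pools of MII oocytes, 3 matured in vitro without quercetin (control) and 3 with 10 μM quercetin, a plant flavonol. All oocytes came from female Kunming mice aged 9 to 10 months, and each pool held 15 oocytes from 3 mice that had reached MII after 16 h in M16 medium. The cumulus cells around the oocytes had been pipetted off before culture. By the study's methods only oocytes that completed maturation were sequenced, so as described there the pools hold no oocytes still in prophase arrest.

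In the fully grown oocyte, GPR3, and in some species GPR12, is active without a known ligand in the follicle and turns on the stimulatory G protein Gs, whose alpha subunit is made from *Gnas*. Gs activates adenylyl cyclase, cAMP rises, and cAMP releases the catalytic subunits of PKA from the regulatory subunits. PKA then keeps cyclin B and CDK1 inactive through WEE1B and CDC25B. PDE3A degrades cAMP, but it is blocked while cyclic GMP flows in from the granulosa and cumulus cells, where NPR2 makes it. When the cyclic GMP supply falls, or when the oocyte is taken out of its follicle, PDE3A lowers cAMP and meiosis resumes. Fully grown and MII oocytes make almost no new RNA, so transcript levels in them reflect what is left of RNA made earlier.

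Calls required a more than 2-fold change at an adjusted p below 0.05 (quasi-likelihood test of edgeR, Benjamini-Hochberg adjustment over 11842 genes). No member was called, and nor was any other gene (0% of tested genes). At an unadjusted p under 0.05, *Gpr3* and *Gnas* were lower with quercetin, by 28.1% and 43.7% of the control mean. Of all tested genes, 1.89% were lower at that threshold. The *Gnas* counts may not be separate from those of *Gm20721*, a gene model on the other strand. The summed counts of *Gnas* and *Gm20721* overlapped between groups. The other 5 tested members, *Adcy9*, *Pde3a*, *Prkar1a*, *Prkaca* and *Prkacb*, had intervals that included no change. *Gpr12*, *Adcy3* and *Npr2* had too few counts to be tested, and *Npr2* had none.

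Total counts ran from 7880467 to 9938743 per pool. Levels are given as CPM, counts scaled to library size and then by TMM between pools, and a gene at 3 counts, the floor used here, stood at 0.329 to 0.376 CPM. This floor covers counting error only, because the reads carry no molecular identifiers. All 12 oocyte markers passed the filter on low counts, and their summed level was 18048 to 21755 CPM in control pools and 20684 to 22530 CPM in quercetin pools. Of 14 granulosa and cumulus markers, 4 (*Amh*, *Foxl2*, *Ptx3* and *Amhr2*) had no count in any pool. The summed level of the 14 was 80.7 to 97.4 CPM in control and 106.5 to 110.0 CPM in quercetin pools, mostly from *Cyp19a1*, and the groups did not overlap. The share of counts on mitochondrially encoded genes did not overlap either, at 2.47% to 3.11% in control and 2.09% to 2.28% in quercetin pools. In a principal component analysis without the members, the third quercetin pool scored 30.9 on the first component, within the control range of -3.35 to 31.3, while the other quercetin pools scored -37.9 and -30.9. The part of these differences in the values of the members was not tested. In pooled oocytes, fewer oocytes of a kind and less RNA per oocyte cannot be told apart, and the p-values measure the spread between pools.

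The sequence of the locus bears on what the *Gnas* counts measure, so it is shown first. *Gnas* (ENSMUSG00000027523) lies on the plus strand at chr2:174284320-174346744 (GRCm38, GENCODE release M21). *Gm20721* (ENSMUSG00000090625), a gene model on the minus strand, lies across its exons. The first numbered transcripts of both genes share 1140 bases in 11 intervals, which is 32.4% of the 3519 bases of *Gnas* and 76.8% of the 1484 bases of *Gm20721*. One such interval, coding sequence at chr2:174345990-174346057, is exon 11 of 12 of *Gnas* and exon 2 of 13 of *Gm20721*. Each is shown 5′ to 3′ on its own strand, from the GENCODE transcripts, and the second is the reverse complement of the first over all 68 bases.
Gnas exon: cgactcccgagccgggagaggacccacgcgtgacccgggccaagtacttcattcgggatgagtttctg
Gm20721 exon: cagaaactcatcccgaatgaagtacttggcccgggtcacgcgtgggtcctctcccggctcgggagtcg
The study's methods name a smart-seq HT kit for the libraries. Whether the libraries kept strand and whether the counting used it is not given in the sources used here. Without strand, a read from this exon cannot be assigned to either gene. The counts of *Gnas* and *Gm20721* are then not separate measures over the shared bases.

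The promoters were read for the cAMP response element, the site bound by the PKA target CREB, since these genes both raise and answer cAMP. The full motif searched was TGACGTCA and its 5-base core was TGACG, on both strands, so that each full motif also holds the core 2 times. RefSeq windows from 250 bases before to 50 bases after the start (GRCm38.p6) were found for 9 of 10 members, all but *Pde3a*, and these 9 have 22 windows. The core was in a window of 6 of the 9 genes (*Adcy9*, *Gnas*, *Gpr3*, *Prkaca*, *Prkacb* and *Prkar1a*), against 23.0% of 27025 genes. Counted by window it was in 10 of 22, against 20.8% of 32851 windows. The full motif was in a window of *Prkar1a* alone among the members, against 2.03% of genes. The 250 bases before the start of *Gpr3* (chr4:133212537-133212786, minus strand) hold the core 2 times, in capitals, both as its reverse complement. For *Prkar1a*, the full motif is shown in capitals with the bases around it (chr11:109650890-109650911, plus strand), 39 to 46 bases after a RefSeq start. That window was chosen because it holds the motif. Its start lies inside the GENCODE gene, which begins at 109649405.
Gpr3 promoter: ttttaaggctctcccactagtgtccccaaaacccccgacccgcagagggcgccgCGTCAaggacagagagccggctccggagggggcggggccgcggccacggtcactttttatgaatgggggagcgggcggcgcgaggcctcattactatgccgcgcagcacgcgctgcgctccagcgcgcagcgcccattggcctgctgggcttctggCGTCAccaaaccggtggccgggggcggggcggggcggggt
Prkar1a motif: cgaggcgcatTGACGTCAgcag
These are matches of letters only. The data hold no measure of binding.

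*Gpr3* (ENSMUSG00000049649, chr4:133209340-133212536, minus strand) encodes the constitutively active receptor that keeps Gs on in the mouse oocyte. The control pools stood at 21.9, 26.2 and 24.6 CPM, and the quercetin pools at 15.3, 16.8 and 20.2 CPM. Every quercetin pool was lower than every control pool. The means were 24.2 ± 2.19 CPM in control and 17.4 ± 2.55 CPM with quercetin (SD, n = 3 pools each here and below). The log2 fold change was -0.47 (SE 0.20, 95% interval -0.93 to -0.02), with an unadjusted p of 0.0442 and an adjusted p of 0.988 in edgeR's quasi-likelihood test. *Gpr3* was lower in all 14 alternative fits, from -0.59 to -0.39. Its unadjusted p stayed under 0.05 in 6 of these, and it was over 0.05 without any 1 of 4 pools (control 2 or 3, quercetin 1 or 2). *Gpr3* lies over *Cd164l2* on the other strand in 7.46% of its exon length. In control pools *Cd164l2* had a mean of 226 CPM per kilobase against 8.87 for *Gpr3*, and its pools overlapped between groups. If strand was not kept, reads of *Cd164l2* may be among the *Gpr3* counts, so the level of *Gpr3* is uncertain. Their part in the *Gpr3* counts was not tested.

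*Gpr12* (ENSMUSG00000041468, chr5:146582398-146585239, minus strand), the close relative of *Gpr3*, was at or near the floor. It had 2, 2 and 3 counts without quercetin and 2, 1 and 3 counts with it, so no fold change is given. *Gpr6*, the remaining receptor of this family, had no count in any pool. Per kilobase of exon, *Gpr3* made up 98.8% ± 0.251 of the summed level of *Gpr3* and *Gpr12* in control pools and 98.6% ± 0.638 in quercetin pools. *Gpr3* thus made up almost all of the counted transcript level of these receptors in both groups, with the limit from *Cd164l2* given above.

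**Figure D1:**
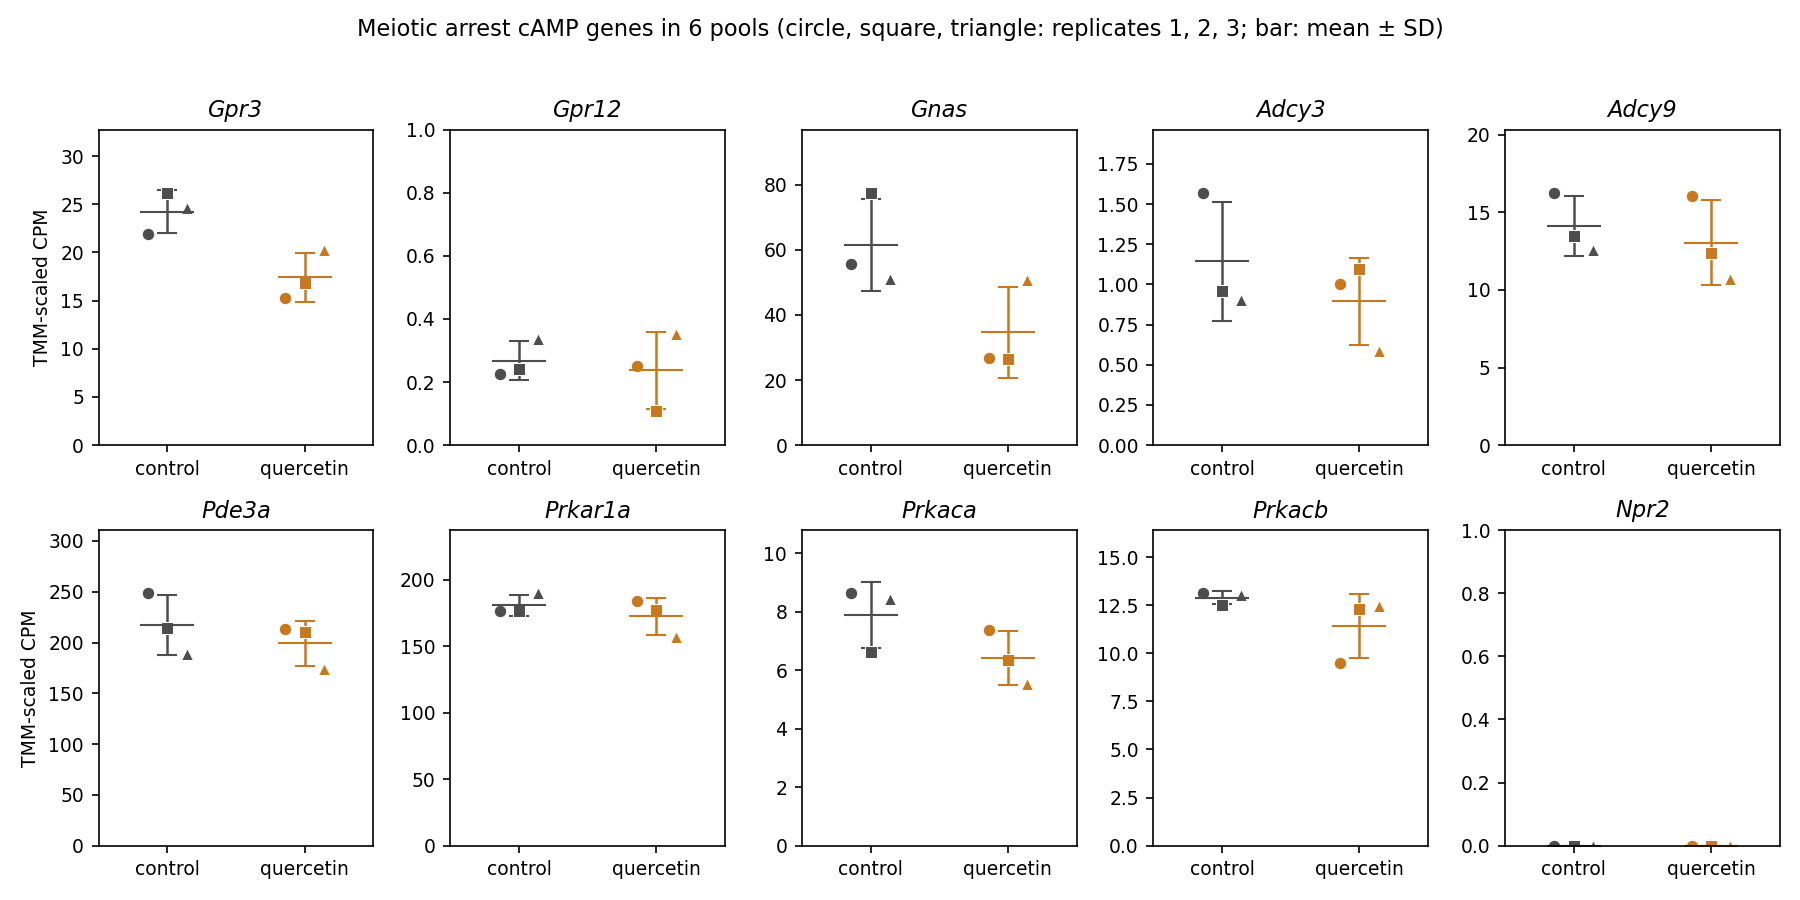
TMM-scaled CPM of the 10 members in each pool, 1 panel per gene with its own axis from 0 (points, pools; bars, mean ± SD over 3 pools). The quercetin pools of *Gpr3* (15.3 to 20.2 CPM) all lie under the control pools (21.9 to 26.2 CPM), the third quercetin pool of *Gnas* lies near the lowest control pool, and *Npr2* is at 0 throughout.

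*Gnas*, which encodes the alpha subunit of Gs, showed the largest difference among the members. The control pools stood at 55.7, 77.5 and 51.1 CPM, and the quercetin pools at 26.7, 26.5 and 50.6 CPM. The first and second quercetin pools were far below all control pools, whereas the third was just under the lowest control pool. The means were 61.4 ± 14.1 and 34.6 ± 13.9 CPM. The log2 fold change was -0.83 (SE 0.29, 95% interval -1.49 to -0.17), with an unadjusted p of 0.0193 and an adjusted p of 0.988. Without the third quercetin pool the log2 fold change was -1.20, with an adjusted p of 0.183. Without the second control pool it was -0.62, with an unadjusted p of 0.0812. Without the first quercetin pool it was -0.67, with an unadjusted p of 0.0673, and without the second it was -0.67, with an unadjusted p of 0.0656.

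*Gm20721*, on the other strand of the *Gnas* exons, had more counts than *Gnas* in every pool. It stood at 69.6, 95.7 and 64.6 CPM in control pools and at 33.2, 40.5 and 68.5 CPM in quercetin pools. As for *Gnas*, the third quercetin pool was the highest of its group, and here it lay among the control pools, whereas for *Gnas* it was just under them. Its log2 fold change was -0.69 (SE 0.28), with an unadjusted p of 0.0368 and an adjusted p of 0.988. *Gm20721* took 55.2% to 60.4% of the counts of both genes in all 6 pools. The counts of both genes were also summed, a step added after seeing the data. The sum stood at 125.2, 173.2 and 115.7 CPM in control pools and at 59.9, 67.0 and 119.1 CPM in quercetin pools. The groups then overlapped, because the third quercetin pool exceeded the third control pool. The log2 fold change of the sum was -0.75 (SE 0.28, 95% interval -1.37 to -0.13), with an unadjusted p of 0.0235 and an adjusted p of 0.988.

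**Figure D2:**
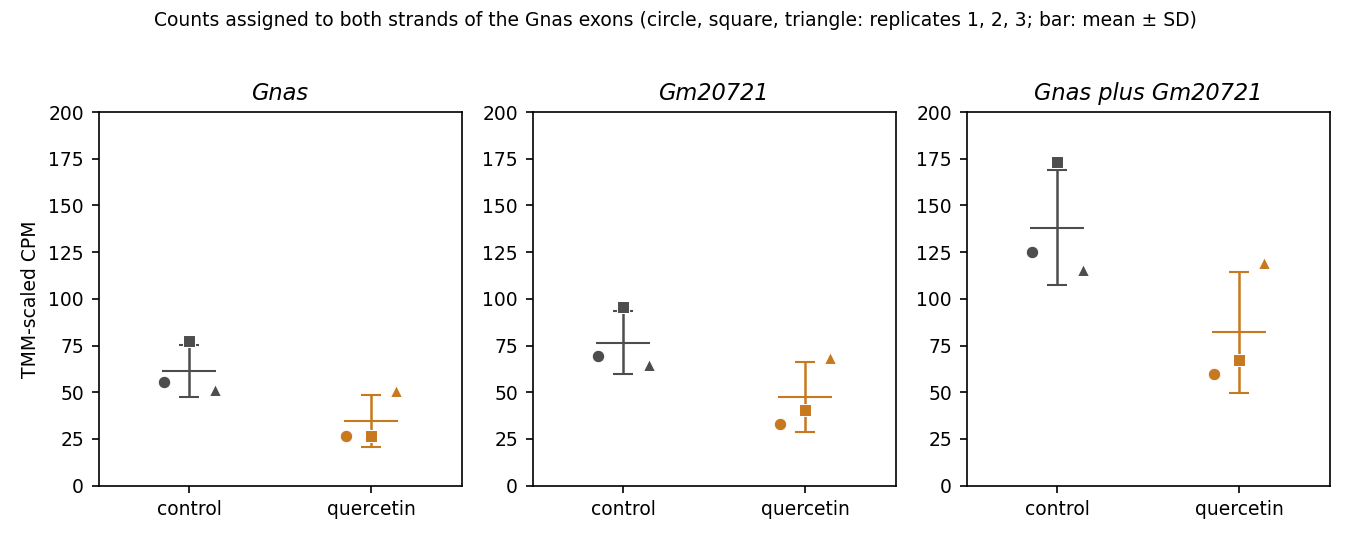
TMM-scaled CPM of *Gnas*, of *Gm20721* on the opposite strand, and of their sum, by pool (points, pools; bars, mean ± SD over 3 pools; same axis from 0 in all panels). All panels show quercetin pools 1 and 2 under every control pool and quercetin pool 3 near the control pools, and in the sum that pool (119.1 CPM) is above control pool 3 (115.7 CPM).

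*Gnas* had the smallest unadjusted p of the members, and the tested genes nearest to it in pattern were sought. Likeness was the root mean square distance of centred log2 CPM over the 6 pools, so that a smaller value is a closer pattern. *Dmrt1i* was nearest (0.0704), then *Gm20721* (0.107) and *Parp16* (0.109). The counts of *Dmrt1i* were 27, 34 and 24 in the control pools against 11, 11 and 25 in the quercetin pools. Those of *Parp16* were 16, 26 and 18 in the control pools against 6, 8 and 15 in the quercetin pools. Both are counted from far fewer reads than *Gnas*, which had 213 to 645 counts per pool. A further gene on the other strand of *Gnas*, *Nespas*, had 2 to 6 counts per pool.

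The adenylyl cyclases make cAMP when Gs activates them. *Adcy9* (ENSMUSG00000005580, chr16:4287529-4420498, minus strand) stood at 16.3, 13.5 and 12.6 CPM in control pools and at 16.03, 12.4 and 10.7 CPM in quercetin pools. The groups overlapped. Its log2 fold change was -0.11 (SE 0.24, 95% interval -0.65 to 0.42), with an adjusted p of 0.990, and it turned to 0.0034 without the first control pool and to 0.011 without the third quercetin pool. *Adcy3* (ENSMUSG00000020654, chr12:4133103-4213525, plus strand), long studied as an oocyte cyclase in rodents, had 14, 8 and 8 counts without quercetin and 8, 10 and 5 counts with it. It was under the filter on low counts, and a two-sided exact permutation test of its CPM gave p = 0.6. A part of its exon length, 22.1%, lies over *Cenpo* on the other strand, which stood at 55.8 to 80.05 CPM, so the few *Adcy3* counts are uncertain.

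Per kilobase of exon, *Adcy9* and *Adcy2* were the main cyclases in both groups. *Adcy9* took 37.0% ± 7.38 of the summed level of the 10 cyclases in control pools and 32.8% ± 4.53 in quercetin pools, and *Adcy2* took 36.7% ± 10.9 and 40.1% ± 5.23. These shares differed by less than their spread between pools. *Adcy8* followed at 15.7% ± 4.71 and 19.1% ± 6.41, and *Adcy3* had 2.51% ± 0.944 and 1.84% ± 0.328. Between the member cyclases alone, *Adcy3* made up 6.22% ± 1.05 in control and 5.39% ± 1.30 in quercetin pools.

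*Pde3a* (ENSMUSG00000041741, chr6:141249269-141507448, plus strand) encodes the phosphodiesterase whose activity ends the arrest. It stood at 248.7, 214.4 and 189.1 CPM in control pools and at 213.7, 210.3 and 173.6 CPM in quercetin pools. The groups overlapped. With 1475 to 2216 counts per pool it was the most deeply counted member, and its log2 fold change of -0.13 (SE 0.16, 95% interval -0.48 to 0.23) had an adjusted p of 0.988. Its exons share 5.82% of their length with *Gm28523* on the other strand, which was under 1 CPM in every pool.

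Among the 18 phosphodiesterases, the level per kilobase was carried by *Pde3a*, *Pde8a* and *Pde3b*. *Pde3a* took 37.3%, 36.1% and 32.7% of the summed level in the control pools against 30.7%, 31.1% and 32.2% in the quercetin pools. Its share was lower in every quercetin pool than in every control pool (means 35.4% ± 2.37 and 31.3% ± 0.792), while its CPM overlapped. *Pde8a*, a phosphodiesterase with high affinity for cAMP, took 31.96% ± 2.27 and 35.9% ± 3.70, and its pools overlapped. *Pde3b*, the other gene of the PDE3 family, took 26.6% ± 1.58 and 27.1% ± 1.61. No test was made of these shares. Within a family they are tied, since a higher share of any gene lowers those of the others. A full separation of 3 pools from 3 has an exact permutation p of 0.1, the smallest possible.

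**Figure D3:**
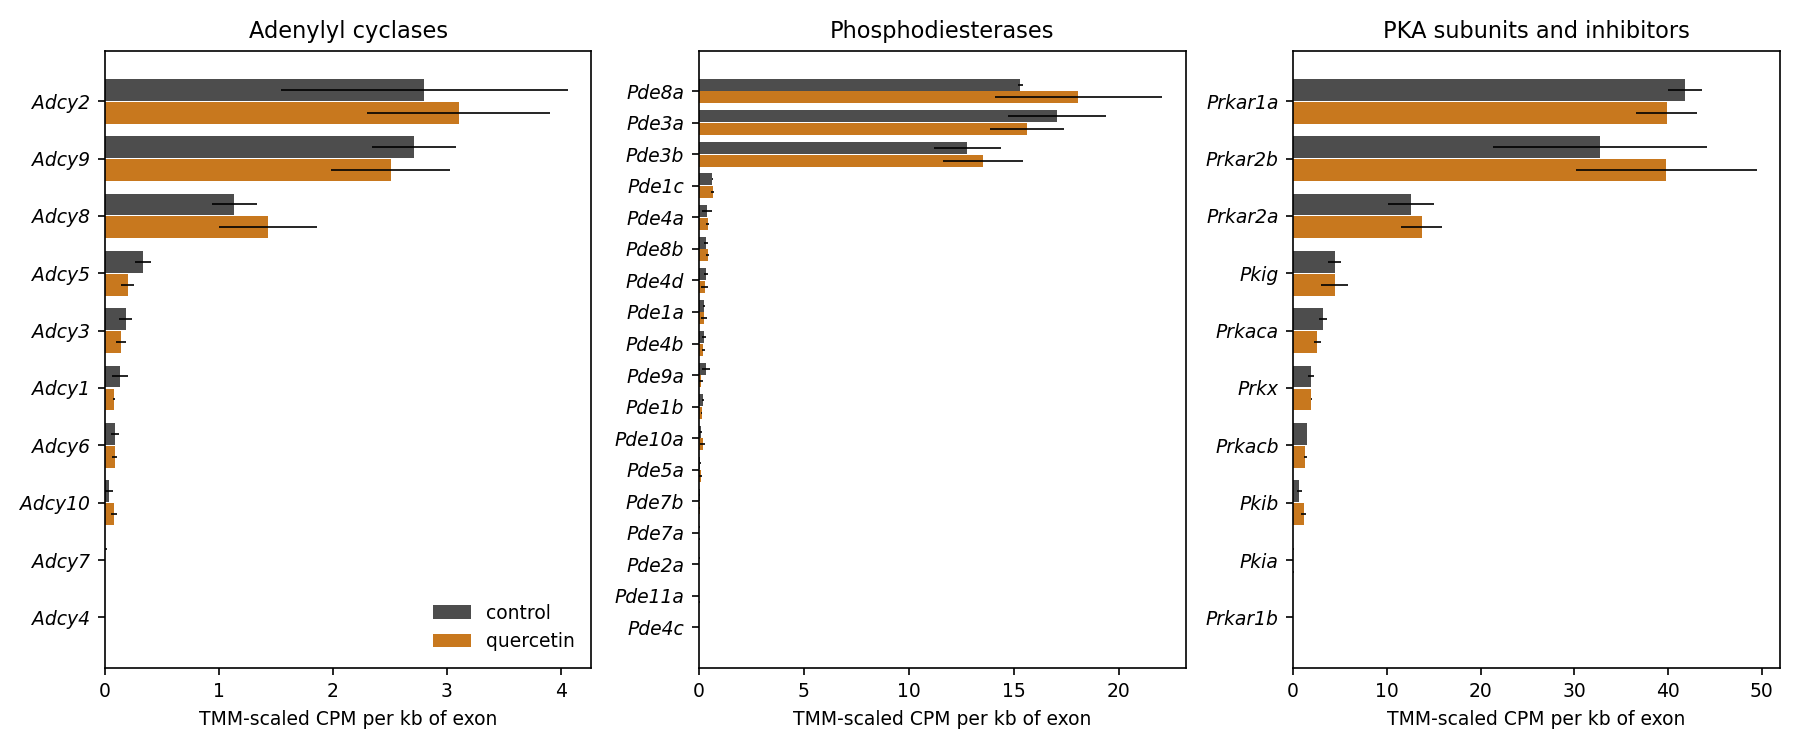
Mean TMM-scaled CPM per kilobase of exon of the adenylyl cyclases, phosphodiesterases and PKA subunits and inhibitors in control and quercetin pools (bars from 0; lines, SD over 3 pools). *Adcy9* and *Adcy2*, *Pde3a*, *Pde8a* and *Pde3b*, and *Prkar1a* and *Prkar2b* lead their families in both groups, and *Adcy3* is a minor cyclase.

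The PKA holoenzyme pairs regulatory subunits, which bind cAMP, with catalytic subunits. *Prkar1a* (ENSMUSG00000020612, chr11:109649405-109669656, plus strand), a type I regulatory subunit, stood at 176.3, 176.1 and 189.8 CPM in control pools and at 183.6, 176.8 and 156.5 CPM in quercetin pools. It varied little and the groups overlapped. Its log2 fold change of -0.07 (SE 0.13, 95% interval -0.37 to 0.24) was the smallest and most precisely measured of the 7, with an adjusted p of 0.990.

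*Prkaca* (ENSMUSG00000005469, chr8:83972993-83996443, plus strand), which encodes the catalytic subunit alpha, stood at 8.64, 6.61 and 8.44 CPM in control pools and at 7.39, 6.36 and 5.53 CPM in quercetin pools. The first quercetin pool exceeded the second control pool, so the groups overlapped. Its log2 fold change was -0.30 (SE 0.25, 95% interval -0.87 to 0.27), with an adjusted p of 0.988. *Prkacb* (ENSMUSG00000005034, chr3:146729574-146812990, minus strand), which encodes the catalytic subunit beta, stood at 13.1, 12.5 and 13.1 CPM in control pools and at 9.52, 12.3 and 12.5 CPM in quercetin pools. All quercetin pools were under all control pools, but 1 of them only just, and the log2 fold change was -0.17 (SE 0.22, 95% interval -0.66 to 0.31), with an adjusted p of 0.988. *Prkaca* and *Prkacb* share 4 words of 31 bases, which is 0.163% of those of *Prkaca*.

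The balance of the subunits was also read within pools. *Prkaca* made up 68.2% ± 2.67 of the level per kilobase of *Prkaca* and *Prkacb* in control pools and 66.3% ± 6.29 in quercetin pools. The order of these genes depends on the length scaling, since from raw counts *Prkaca* made up 37.8% and 36.2%. With *Prkx*, the remaining catalytic gene, included, *Prkaca* took 48.3% ± 1.92 and 44.3% ± 5.24 and *Prkacb* 22.6% ± 2.23 and 22.4% ± 3.72. *Prkx* took 27.8%, 28.1% and 31.5% in the control pools against 31.6%, 33.8% and 34.6% in the quercetin pools. Its share was thus higher in every quercetin pool, while its log2 fold change was 0.02. The share of *Prkx* is tied to those of *Prkaca* and *Prkacb* and was not tested. The ratio of both catalytic members to *Prkar1a*, per kilobase, was 0.122, 0.1002 and 0.111 in the control pools against 0.0954, 0.0967 and 0.101 in the quercetin pools, which overlapped. Among the 4 regulatory subunits, *Prkar1a* took 48.6% ± 8.24 and 43.1% ± 6.57 of the summed level. The next, *Prkar2b*, a type II subunit, took 36.9% ± 9.63 and 42.2% ± 5.997, and *Prkar1b* had no count.

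*Npr2* (ENSMUSG00000028469, chr4:43631935-43651244, plus strand), the receptor of the granulosa and cumulus cells that makes cyclic GMP, had no count in any of the 6 pools. In each pool taken alone, a count of 0 allows a level of up to 0.329 to 0.376 CPM, the floor of 3 counts, and the 6 pools together allow less. Of the 14 granulosa and cumulus markers, 10 had counts. *Cyp19a1* had 58.4 to 75.9 CPM, *Nr5a2* 10.9 to 16.4, *Kitl* 7.69 to 12.5, *Has2* 1.65 to 6.01 and *Fshr* 0.752 to 2.02 CPM, and the other 5 had 6 to 19 counts over all pools. Of the 4 tested markers, *Cyp19a1* and *Kitl* were higher in every quercetin pool, against 5.42% of all tested genes. The unadjusted p of *Kitl* in edgeR's quasi-likelihood test was 0.0209. The pools of *Has2* and *Nr5a2* overlapped. *Fshr*, under the filter, had a lower mean with quercetin (1.02 CPM against 1.33 CPM in control). *Tnfaip6* and *Hsd17b1* were also higher in every quercetin pool, but had 14 and 6 counts over all pools and were not tested.

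Read per kilobase of exon over all 6 pools, the members spanned a wide range. *Prkar1a* was highest with a mean of 40.9 CPM per kilobase, then *Pde3a* with 16.4, *Gpr3* with 7.62 and *Gnas* with 4.29. *Prkaca* (2.88) and *Adcy9* (2.61) lay close together, then came *Prkacb* (1.39), *Adcy3* (0.163) and *Gpr12* (0.101). The length used is that of all annotated exons together, which for *Gnas* is 11186 bases against 3519 bases in the transcript above, so the level of *Gnas* per kilobase depends on the length chosen.

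As a group, 7 of the 10 members passed the filter, and 2 of these 7 had an unadjusted p under 0.05, against 4.03% of all tested genes. Both were lower with quercetin, against 1.89% of all tested genes. All 7 had a log2 fold change below 0, against 53.6% of all tested genes, with the exceptions given for *Adcy9* when 1 pool was left out. In 3 of the 7 every quercetin pool was lower than every control pool (*Gpr3*, *Gnas* and *Prkacb*), against 5.17% of all tested genes. With DESeq2's size factors in place of TMM this held for *Gpr3* alone, and with library size alone it held for *Gpr3*, *Prkar1a* and *Prkaca*. The share of all tested genes was counted with TMM only. With library size alone, the median log2 fold change of all tested genes was itself -0.11. The smallest p that an exact permutation test allows with 3 pools against 3 is 0.1, which *Gpr3*, *Gnas* and *Prkacb* reached. The median log2 fold change of the 7 was -0.17, and that of all tested genes was -0.03.

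**Figure D4:**
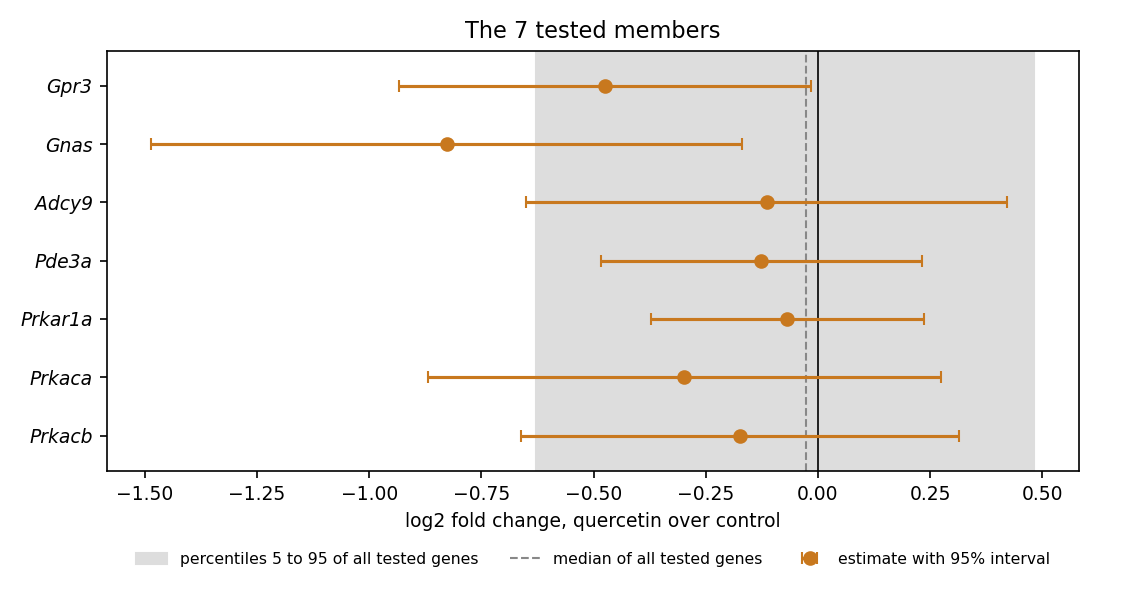
Log2 fold change of quercetin over control for the 7 tested members (points, edgeR's estimates; lines, 95% intervals), with the median of all tested genes (dashed) and the range from percentile 5 to percentile 95 of all tested genes (grey). All 7 points lie left of 0, and the intervals of *Gpr3* and *Gnas* alone leave out 0.

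The wider pathway was read from 93 other genes in 9 lists, of which 58 were tested. None was called, and 1 of the 58, *Pkib*, was higher at an unadjusted p under 0.05, against 2.14% of all tested genes. At that threshold 0 of the 58 were lower, against 1.89% of all tested genes. Every quercetin pool was higher in 3 of the 58 (*Ccnb1*, *Wee2* and *Prkg2*), against 5.42% of all tested genes. Every quercetin pool was lower in 2 of the 58 (*Adcy5* and *Creb1*), against 5.17% of all tested genes. With library size alone, the pools of *Ccnb1* and *Adcy5* overlapped. Of the 58, 25 had a log2 fold change above 0 and 33 below, with a median of -0.03, as over all tested genes. Whether the members differ from the wider pathway was not tested.

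*Pkib* encodes an inhibitor of the PKA catalytic subunits. It stood at 10.997, 5.53 and 6.41 CPM in control pools and at 16.7, 9.98 and 12.9 CPM in quercetin pools. The groups overlapped through the first control pool. Its log2 fold change was 0.78 (SE 0.32), with an unadjusted p of 0.0389 and an adjusted p of 0.988. Of the other PKA genes, *Prkar2b* (0.28, SE 0.29) and *Prkar2a* (0.12, SE 0.20) had positive log2 fold changes within their error. *Akap12*, an anchor for PKA, had -0.41 (SE 0.19, edgeR's unadjusted p = 0.0645), and *Akap7* had -0.03 (SE 0.15).

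On the Gs side, *Rgs2*, a regulator of G protein signalling, was the most abundant gene per kilobase (845 CPM per kilobase), and its log2 fold change was -0.01 (SE 0.14). *Gng12*, a G protein gamma subunit, had -0.03 (SE 0.16). Of the inhibitory G protein genes, *Gnai3* had 0.15 (SE 0.18) and *Gnai1* had -0.07 (SE 0.20). The cyclases *Adcy2* (0.15, SE 0.35) and *Adcy8* (0.33, SE 0.29) also had positive log2 fold changes. So did the phosphodiesterases *Pde8a* (0.24, SE 0.19) and *Pde3b* (0.08, SE 0.17). The 95% intervals of these cyclases and phosphodiesterases included no change. None of the genes in this paragraph had an unadjusted p under 0.05, and none of them encodes a receptor or a Gs alpha subunit. The receptor gene *Gpr6* had no count and was not tested.

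Downstream of PKA, *Ccnb1*, which encodes cyclin B1, had 3396 to 3742 CPM in control pools and 3757 to 5232 CPM in quercetin pools. The pools did not overlap with TMM or DESeq2's size factors but overlapped with library size alone, and its log2 fold change was 0.31 (SE 0.16, edgeR's unadjusted p = 0.0832). *Wee2*, which encodes WEE1B, the kinase that PKA acts through, stood at 708.7, 715.7 and 732.7 CPM without quercetin and at 841.4, 844.1 and 765.7 CPM with it. Every quercetin pool was higher under all 3 scalings, and its log2 fold change was 0.18 (SE 0.12, edgeR's unadjusted p = 0.171). *Ccnb2* had 0.16 (SE 0.20). All 7 tested genes among the other cAMP effectors had a log2 fold change below 0, against 53.6% of all tested genes. Their median was -0.36, and none had an unadjusted p under 0.05. *Rapgef3*, *Creb1* and *Crem* had only 75, 86 and 90 counts over all pools. The most abundant of the 7, *Atf1*, a transcription factor of the CREB family, had -0.05 (SE 0.19). *Rapgef4*, a cAMP-bound exchange factor, had -0.14 (SE 0.59). On the cyclic GMP side, *Gja4*, the gap junction gene of the oocyte, had 0.18 (SE 0.23), and *Prkg1*, a cyclic GMP-dependent kinase, had -0.03 (SE 0.22).

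**Figure D5:**
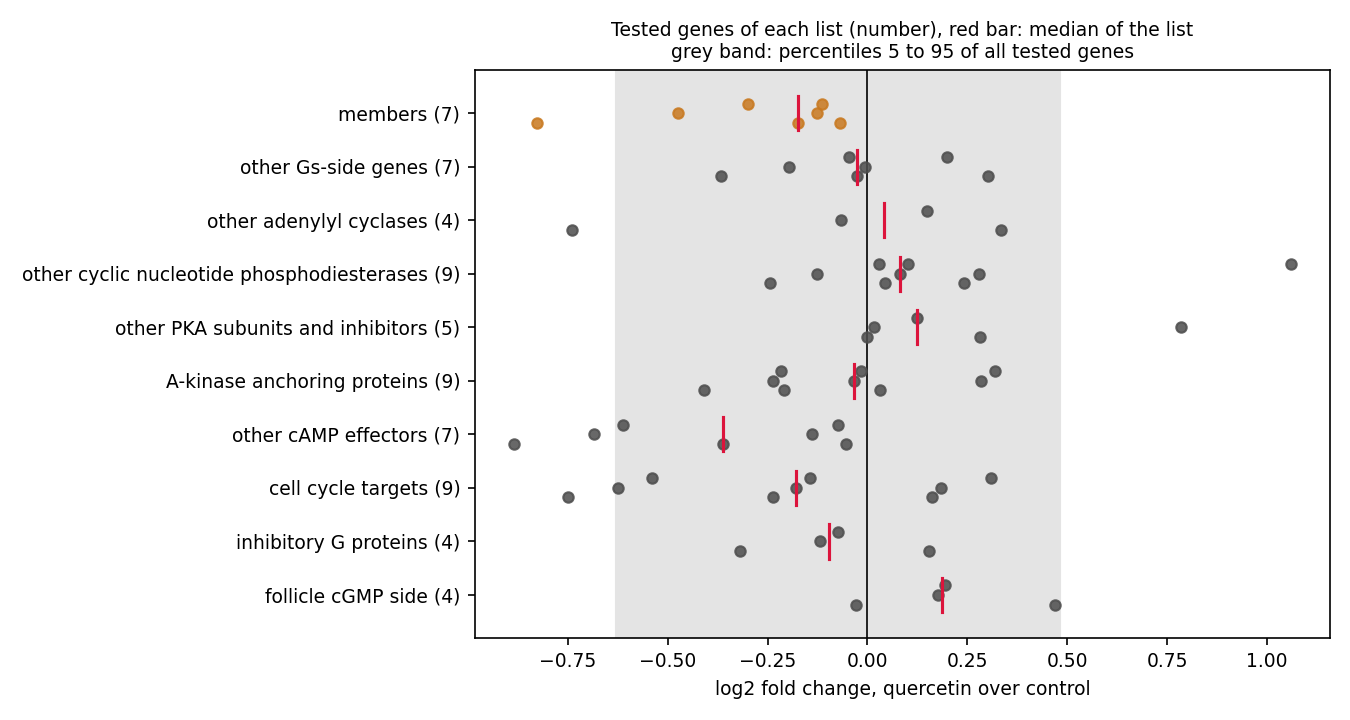
Log2 fold change of quercetin over control for each tested gene of the members and of the 9 wider lists (points, genes, spread vertically for visibility; red bars, list medians; grey, percentile 5 to percentile 95 of all tested genes). The members (median -0.17) and the other cAMP effectors (median -0.36) have all points left of 0, while the other lists have points on both sides. Of all tested genes, 53.6% had a log2 fold change below 0.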

How the data were processed

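Counts of reads per gene in 6 pools were used. The authors deposited these counts for each Ensembl gene without normalization and without merging of replicates. The study's methods name Hisat2 and GRCm38, whereas the submitters' processing notes name TopHat2 2.0.6 and CASAVA 1.8. The counting program and its handling of strand and of reads with several matches are not given in the sources used here. Groups and replicate numbers came from the sample labels, and pool size and culture time from the study's methods.

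The table held 24476 genes with a count, and filterByExpr (minimum count 10) kept 11842. Counts were scaled by TMM and compared by the quasi-likelihood test of edgeR 4.0.16 (R 4.3.3), and p-values were adjusted by Benjamini-Hochberg across the 11842 genes. For single members an exact permutation test (two-sided) was added. Gene symbols, exon lengths, overlaps and coordinates came from GENCODE release M21 (GRCm38), and 53274 of 53465 identifiers had a symbol. Levels per kilobase used the length of all annotated exons. The fit was tested on simulated counts. Python 3.11.15 and matplotlib 3.10.9 were used for the remaining steps.

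The members and lists were chosen with earlier results of these data known. Named were all members, wider pathway genes with an unadjusted p under 0.05, the 2 most abundant genes per kilobase of each list, and the 3 genes nearest to the member with the smallest p. *Gpr6*, *Prkar1b*, *Prkx*, *Wee2*, *Prkg2*, *Adcy5*, *Creb1* and the genes overlapping a member were named outside this rule, after their values were seen. The comparison was repeated with limma-voom (limma 3.58.1), DESeq2 1.42.0 and the likelihood ratio test of edgeR, with other scalings and filters, leaving out each pool, and the replicate number as a block.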

Additional observations from a re-analysis of the deposited data

How the results depend on the processing

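No member reached an adjusted p under 0.05 in any of the 14 alternatives, and 6 of the 7 tested members kept their direction in all of them. The log2 fold change of *Adcy9* ran from -0.29 to 0.011 when 1 pool was left out, and was above 0 without the first control pool (0.0034) or the third quercetin pool (0.011). Over all genes, none was called by edgeR's quasi-likelihood test (477 at an unadjusted p under 0.05), 16 by edgeR's likelihood ratio test, 12 by DESeq2, 0 by limma-voom, 3 without a filter, and 0 to 7 when 1 pool was left out. The 477 became 780 without a filter and 241 to 1563 when 1 pool was left out (241 without the second control pool, 1563 without the third quercetin pool). With library size alone the median log2 fold change of all genes was -0.11, and 145 genes were higher and 362 lower at an unadjusted p under 0.05, against 253 and 224 with TMM.

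Of the wider pathway genes, the 1 that was higher became 0 with library size alone, 2 without a filter and 0 to 3 when 1 pool was left out. The 0 that were lower became 1 with limma-voom and 0 to 4 when 1 pool was left out (3 higher and 4 lower without the third quercetin pool). Members with every quercetin pool lower fell from 3 to 1 with DESeq2's size factors, and the share of all genes under that scaling was not counted. From raw counts without length scaling, *Adcy3* made up 7.38% of both cyclases in control pools, *Prkaca* 37.8% of both catalytic subunits in control and 36.2% in quercetin pools, and the ratio of catalytic subunits to *Prkar1a* was 0.104 in quercetin pools. The cause of the other changes was not tested.

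The replicate numbers are shared between the groups, but deviations of same-numbered pools correlated at 0.296, 0.101 and -0.0303, so pairing was not established. With the replicate number as a block 0 genes were called and 492 had an unadjusted p under 0.05, 1 wider pathway gene was lower, and *Gnas* (-0.87) and *Gpr3* (-0.48) kept their direction. *Gpr12*, *Adcy3* and *Npr2*, with 13, 53 and 0 counts over all pools, were under the filter on low counts. The cause of their low counts was not tested.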
